A study of Homo sapiens with 18 samples.

Results

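AF4-MLL cells on day 28 were compared with AF4-MLL cells on day 3. The 6 libraries were chosen by their labels, 3 for each day, out of 18 libraries in the series, and no measured value was used in the choice. Every library was an ATAC-seq library, in which a transposase cuts open DNA, and the deposited values are reads counted per gene. A count per gene therefore measures how often the DNA assigned to that gene was cut, not how much RNA was made from it.

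The cells were HEK293T, a human embryonic kidney cell line, and they carried an inducible Sleeping Beauty transposon construct for AF4-MLL (pSBTet), the reciprocal fusion of the t(4;11) translocation in which the first part of AF4 (gene AFF1) precedes the C-terminal part of MLL (gene KMT2A). Expression was induced with doxycycline at 1 µg/ml for 48 h and was then ended, so that day 3 is the end of the induction and day 28 is after weeks of growth without it. The other libraries served for comparison only. MLL-AF4 cells had an inducible MLL-AF4 construct, and co-expression cells had constitutive MLL-AF4 together with inducible AF4-MLL, each on the same days with 3 libraries per group. All groups share the host line and the doxycycline treatment, and cells without a fusion construct were not analysed here. Day of sampling and anything else that differed between the sampling days cannot be told apart. The replicates are labelled as biological replicates of a group, but the labels do not say which cultures they came from, and the p-values measure the spread between these libraries. A change in a bulk library also cannot tell fewer cells with open DNA at a gene from less open DNA in each cell.

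In normal cells the MLL complex places active marks on histone H3 at promoters, and AF4 belongs to the super elongation complex that releases RNA polymerase II into elongation. AF4-MLL keeps the N-terminus of AF4 and the SET domain of MLL. The genes described first belong to the unfolded protein response, with which a cell answers an excess of unfolded protein in the endoplasmic reticulum (ER). The sensors ERN1 (IRE1), EIF2AK3 (PERK) and ATF6 act through XBP1, ATF4 and cleaved ATF6 to raise chaperones such as HSPA5 (BiP). A pair of DNA elements in the promoters of such genes are known as ERSE and ERSE-II.

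The promoters of 5 ER stress genes are shown because the genes differed in their change over days while all 5 hold one of these elements. Each sequence is the 250 bases before the annotated start in RefSeq (GRCh38.p14), written 5′ to 3′ on the gene's strand. ERSE was searched as CCAAT and CCACG with any 9 bases between them, and ERSE-II as ATTGG and CCACG with any 1 base between them, on both strands, and capitals mark the matches. In HYOU1 the capitals also cover TGACGTGG, a further element (UPRE) that overlaps the first ERSE-II match.
HSPA5 (chr9:125241344-125241593, minus strand): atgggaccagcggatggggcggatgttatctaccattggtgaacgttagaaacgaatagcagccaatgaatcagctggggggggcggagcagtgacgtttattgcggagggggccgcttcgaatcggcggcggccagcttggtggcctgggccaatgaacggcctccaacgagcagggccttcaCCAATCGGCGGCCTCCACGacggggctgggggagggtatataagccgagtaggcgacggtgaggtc
SDF2L1 (chr22:21642052-21642301, plus strand): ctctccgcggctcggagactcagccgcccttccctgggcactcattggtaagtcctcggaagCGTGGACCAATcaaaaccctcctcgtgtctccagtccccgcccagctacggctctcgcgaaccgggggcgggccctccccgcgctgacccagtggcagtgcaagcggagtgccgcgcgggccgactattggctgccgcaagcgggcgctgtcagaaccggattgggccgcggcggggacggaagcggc
CALR (chr19:12938359-12938608, plus strand): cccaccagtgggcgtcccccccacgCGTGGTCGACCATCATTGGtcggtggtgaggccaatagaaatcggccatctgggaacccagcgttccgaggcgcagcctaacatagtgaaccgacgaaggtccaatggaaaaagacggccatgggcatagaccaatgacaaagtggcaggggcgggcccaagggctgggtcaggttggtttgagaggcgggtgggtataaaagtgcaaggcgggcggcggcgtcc
HYOU1 (chr11:119057206-119057455, minus strand): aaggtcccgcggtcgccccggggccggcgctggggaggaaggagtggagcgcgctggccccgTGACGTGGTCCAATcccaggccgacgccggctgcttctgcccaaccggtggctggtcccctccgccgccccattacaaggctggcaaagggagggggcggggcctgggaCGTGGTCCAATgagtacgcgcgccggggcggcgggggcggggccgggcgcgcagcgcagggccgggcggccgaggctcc
XBP1 (chr22:28800570-28800819, minus strand): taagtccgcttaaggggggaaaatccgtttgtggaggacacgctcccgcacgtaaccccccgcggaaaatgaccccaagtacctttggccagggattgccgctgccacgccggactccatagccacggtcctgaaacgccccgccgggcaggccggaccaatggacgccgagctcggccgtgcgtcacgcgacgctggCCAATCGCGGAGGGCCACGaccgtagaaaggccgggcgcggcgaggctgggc

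The AF4-MLL libraries held 442159 to 1323431 counts on day 3 and 1953507 to 2943823 on day 28. Mitochondrial genes took 38.3% ± 4.95 (SD, n = 3) of the counts on day 3 and 65.3% ± 2.36 on day 28, a difference of 26.9 percentage points (exact two-sided permutation test, p 0.1, the smallest p that 3 against 3 libraries allow). This left 297567 to 791448 nuclear counts per library on day 3 and 710257 to 943248 on day 28, and a median count per tested gene of 12 to 31 in the 6 libraries. The shallowest library was replicate 2 of day 3. All 36 mitochondrial genes tested and 22 of the 23 tested nuclear copies of mitochondrial DNA were higher on day 28, with median log2 changes of 1.83 and 1.85. They are left out of what follows, which concerns 17601 nuclear genes. As a check of the label, 7 HEK293T markers (PAX2, LHX1, NEFL, NEFM, INA, CKB and GATA3) had counts in all 6 libraries, and together they took 3.42 to 4.37 of 10000 nuclear counts. The 6 blood markers took 1.60 to 1.98, the 5 fibroblast markers 1.14 to 1.5 and the 4 liver markers 0.593 to 0.871. Open DNA is not expression, and these sums identify no cell type. KMT2A had 83.3, 108 and 97.9 TMM-scaled counts (CPM, counts relative to library size) on day 3 and 98.98, 100 and 83.0 CPM on day 28, and AFF1 had 65.8, 63.6 and 59.3 against 46.2, 50.3 and 60.0 CPM. Neither source gene of the construct was called (log2 0.01 and −0.28, edgeR adjusted p 0.987 and 0.538), and counts per gene cannot tell the construct from the chromosomal gene.

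Of the 17601 nuclear genes, 49 were called at an adjusted p under 0.05 by edgeR's quasi-likelihood test, which is 0.278% of those tested. On day 28, 22 genes were higher (0.125%) and 27 lower (0.153%). With the mitochondrial genes and copies, 107 of 17660 genes were called (0.606%), 80 of them higher (0.453%). At an unadjusted p under 0.05 there were 1582 nuclear genes (8.99%), and the study's own selection, an unadjusted p under 0.05 with a log2 change over 1 in size and a mean count over 2, took 145 (0.824%), 80 higher and 65 lower. The number rests on few libraries and on the set of genes tested. Without replicate 1 of day 3 it was 10 higher and 8 lower, without replicate 3 of day 3 10 and 10, without replicate 1 of day 28 the lower genes numbered 16, and without replicate 2 of day 28 it was 9 and 17. When the fit held nuclear genes only, so that the very small p-values of mitochondrial genes no longer entered the adjustment, 28 genes were called (11 higher, 17 lower). The median log2 change over all nuclear genes was within 0.01 of 0 under TMM scaling, and directions are relative to it.

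HSPA5, the main Hsp70 chaperone of the ER lumen and a regulator of the ER stress sensors, changed most clearly among the genes that were lower on day 28. It had 116, 114 and 107 CPM in the 3 libraries of day 3 and 51.4, 58.0 and 55.1 CPM in the 3 of day 28. Every library of day 3 thus lay far above every library of day 28, and the fitted level on day 3 was 2.04 times that on day 28. The log2 change was −1.03 (SE 0.13, edgeR adjusted p 5.5e-12), and it was called under all 17 alternative settings tried. The gene (chromosome 9, 125234853 to 125241343, GRCh38.p14) overlaps no other RefSeq gene. Chromosome 9 as a whole took a larger share of the nuclear counts on day 28, in the direction opposite to HSPA5.

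SDF2L1, a cofactor of HSPA5 that works with ER DnaJ proteins, had 46.6, 44.8 and 50.9 CPM on day 3 and 28.7, 27.6 and 31.4 CPM on day 28. The days did not overlap. Its log2 change was −0.71 (SE 0.17, edgeR adjusted p 0.012). The call was lost without replicate 1 or 3 of day 3 and without replicate 1 or 2 of day 28, with DESeq2's Wald test and with an offset for gene length, and log2 values ran from −1.77 to −0.57 over 17 alternatives. Among all listed ER genes, HSPA5 and SDF2L1 were the members called.

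Other ER chaperones had values on the same side without passing the test. CALR (calreticulin, a lectin chaperone for glycoproteins) had 31.8, 27.5 and 27.0 CPM on day 3 and 22.8, 17.7 and 18.1 CPM on day 28 (log2 −0.59, edgeR adjusted p 0.281). DNAJB9 (ERdj4, a J-domain partner of HSPA5) had 57.5, 56.4 and 56.3 against 41.0, 39.8 and 41.9 CPM (log2 −0.48, adjusted p 0.184 by edgeR). HYOU1 (an Hsp110-type exchange factor for HSPA5) had 36.2, 44.8 and 45.5 against 33.9, 29.3 and 28.6 CPM (log2 −0.43, adjusted p 0.396 by edgeR). In all 3 genes the days did not overlap, as in 13.8% of all nuclear genes tested (6.65% higher and 7.11% lower on day 28). HSP90B1 (GRP94) had 60.3, 63.6 and 58.6 against 54.0, 49.2 and 60.0 CPM, and CANX, CRELD2, MANF and DNAJB11 had log2 values between −0.16 and −0.14. DNAJC3 (p58IPK) and SIL1, another exchange factor, had positive values of 0.38 and 0.29. Of the 12 chaperones and co-chaperones tested, 10 had a log2 value below 0, 6 were lower in every library of day 28, and the median was −0.16.

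The other roles of the response held no called gene. Of the 7 disulfide isomerases and oxidases, PDIA4 (ERp72) was lowest, with 62.5, 60.7 and 59.3 against 45.6, 41.4 and 49.5 CPM (log2 −0.43, edgeR adjusted p 0.234), and the median of the group was −0.06. Of the 10 genes of ER-associated degradation and translocation, HERPUD1, a membrane protein of the degradation complex, had 46.6, 34.7 and 39.3 against 28.0, 30.4 and 27.9 CPM (log2 −0.53, edgeR adjusted p 0.210). EDEM1, which sorts misfolded glycoproteins for degradation, had a log2 value of −0.33, OS9, a lectin of the same pathway, one of 0.37, and the group's median was −0.04. Among the 6 sensors and transcription factors, 0 were called, 4 values were below 0 and the median was −0.16, like that of the chaperones. ERN1 had a log2 value of −0.30, EIF2AK3 one of 0.34 and XBP1 one of 0.06, with 23.6, 14.5 and 13.1 CPM of XBP1 on day 3 and 16.3, 20.4 and 20.2 on day 28. Over all 35 ER stress genes tested, 2 were called lower and 0 higher, and the median log2 change was −0.15. Here 23 values lay below 0, and 9 genes were lower and 2 higher without overlap of the days. Among all 17601 nuclear genes tested, 8906 values lay below 0. Called were 0.153% lower and 0.125% higher, and 7.11% were lower and 6.65% higher without overlap.

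ERSE was found in the promoter windows (250 bases before to 50 after the start) of 7 of the 32 ER genes with a RefSeq promoter, that is 21.9%, and in 0.0806% of all 27305 promoters. ERSE-II was found in 3 (9.38%) against 0.0549% of all. The elements were first described in genes of this kind, so the excess is no finding. The 10 ER genes with either element had a median log2 change of −0.29, with 9 of 10 below 0 and 2 called lower. The 22 ER genes with neither had a median of −0.04, with 11 below 0 and 0 called. Another 15 tested genes outside the ER list held one of the elements, among them FICD, which modifies HSPA5, and SERP1, an ER membrane protein. Their median was −0.16, 11 were below 0 and 0 were called. XBP1, whose promoter is printed above with its ERSE match, had a value near 0. These are descriptions without a test, and a match of letters is not a bound site.

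HSPA5 was also compared across the 3 cell settings. Its day 3 level was 112 ± 4.57 CPM in AF4-MLL cells (SD over 3 libraries), 111 ± 10.6 in co-expression cells and 82.0 ± 15.3 in MLL-AF4 cells. On day 28 the levels were 54.9 ± 3.29, 55.0 ± 8.64 and 57.7 ± 2.76 CPM. The change in co-expression cells was −1.08 on the log2 scale (edgeR adjusted p 7.4e-13), and that in AF4-MLL cells differed from it by 0.05 (SE 0.18, adjusted p 0.997 by edgeR). The change in MLL-AF4 cells was −0.49 on the log2 scale (edgeR adjusted p 0.046). Set against MLL-AF4 cells, the change in AF4-MLL cells differed by −0.54 (adjusted p 0.275 by edgeR), which was not called. SDF2L1 had log2 changes of −0.13 in MLL-AF4 and −0.39 in co-expression cells, not called in either, and its difference from MLL-AF4 cells was not called (−0.58, edgeR adjusted p 0.452).

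The remaining genes that were lower on day 28 came from several pathways. GMPPB, which makes GDP-mannose for glycosylation, had 48.2, 46.3 and 43.2 CPM on day 3 and 26.7, 27.6 and 23.02 on day 28 (log2 −0.83, SE 0.18, edgeR adjusted p 0.0013). The days were far apart, but the call was lost without replicate 1 of day 3 and with an offset for gene length. GMPPB overlaps RNF123, with which it can share reads. Other called genes also overlap RefSeq entries, among them RGL1, FAHD1, NDRG4, SCAND1, DNAJC7, KANSL1L, TTN and EYS. RGL1, an exchange factor for Ral GTPases, had 37.8, 39.1 and 34.7 against 18.9, 22.1 and 18.1 CPM (log2 −0.89, SE 0.20, edgeR adjusted p 0.0032), again without overlap, and lost its call without replicate 1 of day 3 only. It is one of the few long genes among the lower ones, 292424 bases, and it kept its call with an offset for gene length.

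FAHD1, a mitochondrial oxaloacetate decarboxylase, fell from 40.7 ± 2.15 to 23.2 ± 1.34 CPM (log2 −0.81). TNFRSF12A, the receptor of the cytokine TWEAK, fell from 42.8 ± 1.83 to 25.8 ± 3.96 (log2 −0.75), and E4F1, a transcription factor linked to p53, from 58.7 ± 5.80 to 38.7 ± 2.79 (log2 −0.63). NDRG4 fell from 89.9 ± 7.75 to 62.4 ± 6.33 CPM (log2 −0.54) and SCAND1 from 85.4 ± 3.31 to 58.5 ± 1.95 (log2 −0.54). In these 5 genes all libraries of day 28 lay below all of day 3, with edgeR adjusted p from 0.0056 to 0.011. Each of the 5 calls was lost on leaving out at least 1 of replicates 1 and 3 of day 3. FAM174A, PRRT3 and DNAJC7, a cytosolic co-chaperone, were lower too (log2 −0.90, −0.62 and −0.66), as was AC008735.1 (log2 −1.64, 11 to 29 counts on day 3 and 5 to 9 on day 28), which has no entry in the RefSeq table. FP671120.3 and FP236383.2 were lower by 0.51 and 0.46. These are copies of repeated ribosomal DNA sequence and share reads, so they do not count as separate genes.

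**Figure D1:**
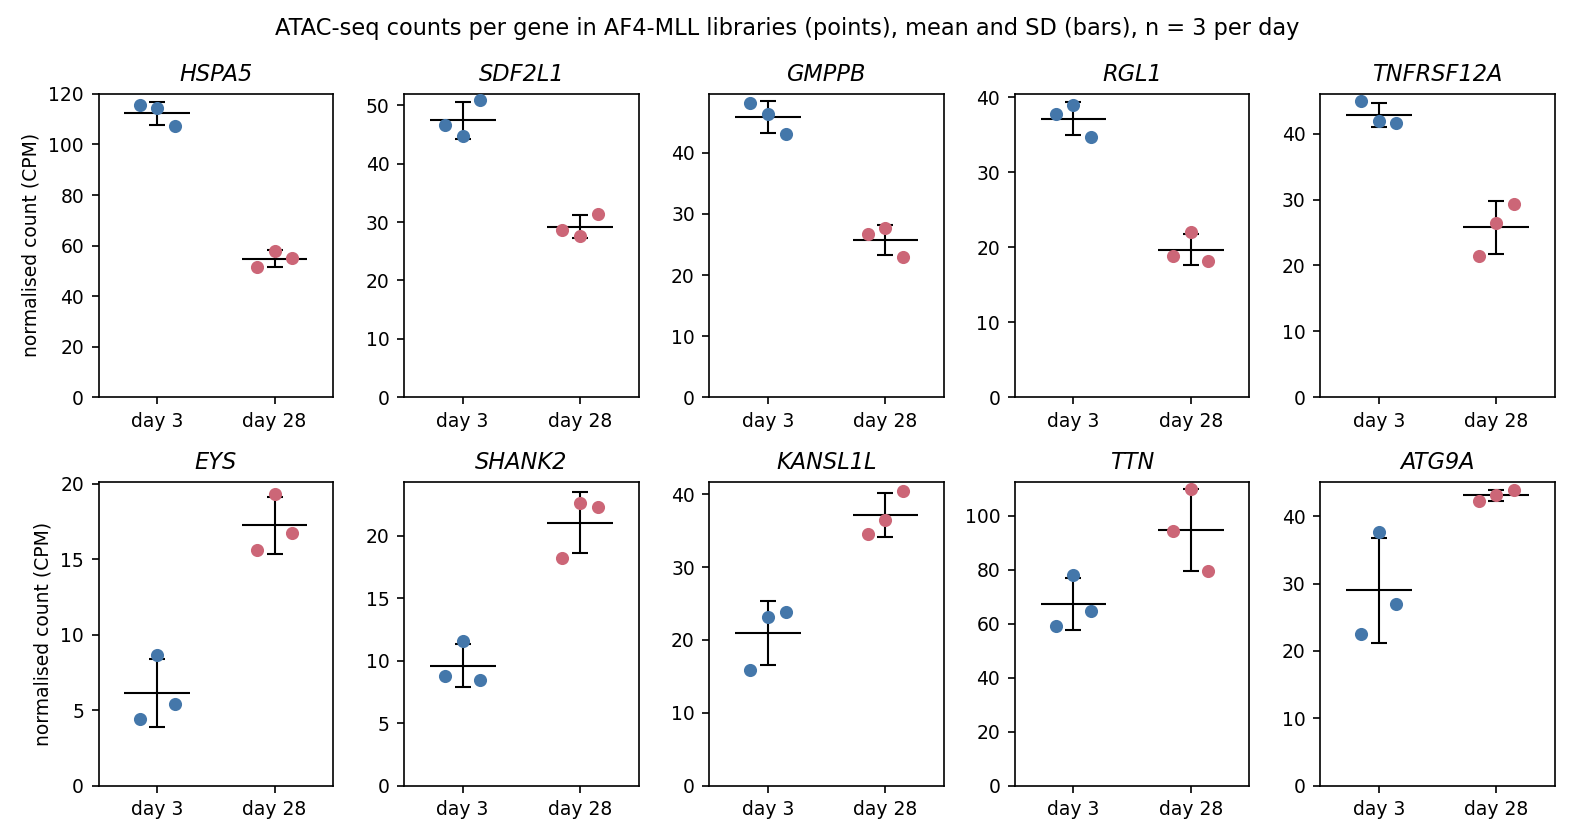
Normalised ATAC-seq counts (CPM, y axis from 0) of 10 called genes in the 3 AF4-MLL libraries of day 3 (blue) and of day 28 (red), with mean and SD. In the top row (HSPA5, SDF2L1, GMPPB, RGL1, TNFRSF12A) every day 28 point lies below every day 3 point, in the bottom row (EYS, SHANK2, KANSL1L, TTN, ATG9A) above.

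The called genes that were higher on day 28 tended to have lower counts and larger fold changes than the lower ones. A gene with few counts has a larger SE and is called only with a larger change. The largest change was in AC093809.1, an entry without a RefSeq match, which had 13, 1 and 10 counts on day 3 and 73, 104 and 93 on day 28 (log2 3.15, SE 0.25, edgeR adjusted p 2.6e-26). It was also higher in MLL-AF4 (log2 2.50) and co-expression cells (log2 2.64). The next largest adjusted significance belonged to MIR6723 (log2 1.80) and AL669831.3 (log2 1.77), whose counts followed the mitochondrial counts. Per 10000 mitochondrial counts MIR6723 took 13.4 to 14.1 in the 6 libraries and AL669831.3 41.4 to 44.2, while per 10000 nuclear counts their means went from 9.19 to 31.7 and from 28.9 to 97.1. AC093809.1 did not keep such a ratio, with 0.0692 to 0.748 per 10000 mitochondrial counts and means of 0.185 on day 3 and 0.599 on day 28. For EYS the means were 0.245 and 0.181 per 10000 mitochondrial counts and 0.150 and 0.414 per 10000 nuclear counts. For REXO1L11P they were 0.287 and 0.191 against 0.183 and 0.441. Neither mean was higher on day 28 per mitochondrial count. The EYS mean of day 3 was raised by replicate 2, with 0.150, 0.415 and 0.169 against 0.174, 0.175 and 0.193 on day 28. Mitochondrial counts rose against nuclear counts, so a nuclear gene can rise per nuclear count and fall per mitochondrial count. With MIR6723 and AL669831.3 left out as well, 20 genes were higher.

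Several of the higher genes are very long. EYS, which encodes an extracellular protein of photoreceptors and spans 1987247 bases, had 8, 6 and 7 counts on day 3 and 24, 35 and 24 on day 28, or 4.38, 8.68 and 5.39 against 15.6, 19.3 and 16.7 CPM (log2 1.63, SE 0.33, edgeR adjusted p 0.00043). The days did not overlap, and the call was lost without replicate 1 of day 3. SHANK2, a scaffold of the synapse spanning 785381 bases, had 8.77, 11.6 and 8.48 against 18.2, 22.7 and 22.3 CPM (log2 1.19, edgeR adjusted p 0.0090). TTN, the giant sarcomere protein titin, had 59.2, 78.1 and 64.7 against 94.4, 110 and 79.5 CPM (log2 0.56, edgeR adjusted p 0.0056), and its nearest libraries of the days lay close together. KANSL1L, a relative of a histone acetyltransferase subunit, had 15.9, 23.1 and 23.9 against 34.5, 36.5 and 40.5 CPM (log2 0.89, edgeR adjusted p 0.0048). With an offset for gene length the calls of SHANK2, TTN and KANSL1L were lost, as they were without replicate 1 of day 3, and that of EYS was kept.

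MYBPC1 (a myosin-binding protein), TSHZ3 and FHDC1 were higher by 1.69, 1.61 and 1.64 on the log2 scale, from 3 to 8 counts per library on day 3. KIAA1958, MTMR1 and DDX60L were higher by 1.03, 1.34 and 1.24. FHDC1 and the last 3 were each called in 5 of 15 alternatives, TSHZ3 in 7 and MYBPC1 in 10. HELLPAR and REXO1L11P, a non-coding RNA and a pseudogene, were higher by 0.51 and 1.43. ATG9A, a membrane protein of autophagosome formation, was the 1 called member of the 24 lysosome and autophagy genes tested. It had 22.5, 37.6 and 27.0 CPM on day 3 and 42.3, 43.1 and 43.9 on day 28 (log2 0.68, edgeR adjusted p 0.048), and was called in 5 of 17 alternatives. Of the 15 higher and 15 lower genes named by rank, 3 and 2 were called under each alternative that gave them a value (15 for the 3 higher genes, 17 for HSPA5 and 13 for AC008735.1, which has no DESeq2 or length-offset value), and 12 of each 15 were lost without replicate 1 of day 3.

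All 22 higher genes and 25 of the 27 lower genes had no overlap between the days. Over all nuclear genes tested, 6.65% were higher and 7.11% lower without overlap. The calls and the overlap come from the same counts, and genes named by rank had to show no overlap. The missing overlap of called genes is therefore no further support for them. In MLL-AF4 cells 17 of the 22 higher and 16 of the 27 lower genes had the same sign of change, and in co-expression cells 15 and 24 did, where the same sign was shared by 54.8% and 57.7% of all nuclear genes tested. Called in the same direction were 3 and 4 of them in MLL-AF4 cells, where 2.56% of nuclear genes were called (0.983% higher, 1.58% lower). In co-expression cells 5 and 3 were called in the same direction, against 0.284% of nuclear genes (0.114% higher, 0.17% lower). The 3 higher genes in MLL-AF4 cells were AC093809.1, MIR6723 and AL669831.3, which were also among the 5 in co-expression cells. In AF4-MLL cells the counts of MIR6723 and AL669831.3 followed the mitochondrial counts. The interaction test found 55 nuclear genes whose change was not the same in AF4-MLL as in MLL-AF4 cells (0.312%). The difference was positive in 34 (0.193%) and negative in 21 (0.119%), and 1713 had an unadjusted p under 0.05 (9.73%). With copies and mitochondrial genes there were 56. Without replicate 3 of AF4-MLL day 3 there were 20, and without replicate 1 of that group 23. Without replicate 1 of AF4-MLL day 28 there were 34, and leaving out another AF4-MLL library gave up to 49. No MLL-AF4 library was left out, so the dependence on those libraries was not examined. DESeq2 called 8. Against co-expression cells edgeR called 0 genes, with 890 nuclear genes at an unadjusted p under 0.05 (5.06%), and DESeq2 called 0, with 309 of all genes.

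Changes ran with gene length. The 15464 nuclear genes with a RefSeq length were split into 5 equal groups from the shortest, up to 8944 bases, to the longest, from 98590 bases. From shortest to longest, the median log2 change in AF4-MLL cells was −0.10, −0.03, −0.00, 0.05 and 0.11. Of the called genes, 16 higher and 20 lower ones had a length. Of these, 1 higher and 12 lower ones were in the shortest group, and 8 higher and 1 lower in the longest. Each of these groups held 3093 genes, and 0.125% of all nuclear genes tested were called higher and 0.153% lower. The medians of co-expression cells ran from −0.11 to 0.09 in the same order, and those of MLL-AF4 cells stayed between −0.02 and 0.04. In each AF4-MLL library, the counts on the longest group divided by those on the shortest came to 0.966, 1.01 and 0.984 on day 3 and 1.13, 1.12 and 1.11 on day 28. The days did not overlap (exact two-sided permutation test, p 0.1, the smallest possible, adjusted 0.15 over 3 settings). In co-expression cells the ratio went from 0.923 ± 0.0134 to 1.05 ± 0.00153 (exact p 0.1), and in MLL-AF4 cells it was 1.05 ± 0.00656 and 1.06 ± 0.0122 (exact p 0.4). The mitochondrial share was also higher on day 28 in MLL-AF4 cells, 65.0% against 44.0%, where the ratios of the days overlapped. The part of the mitochondrial share in the ratio was not tested.

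**Figure D2:**
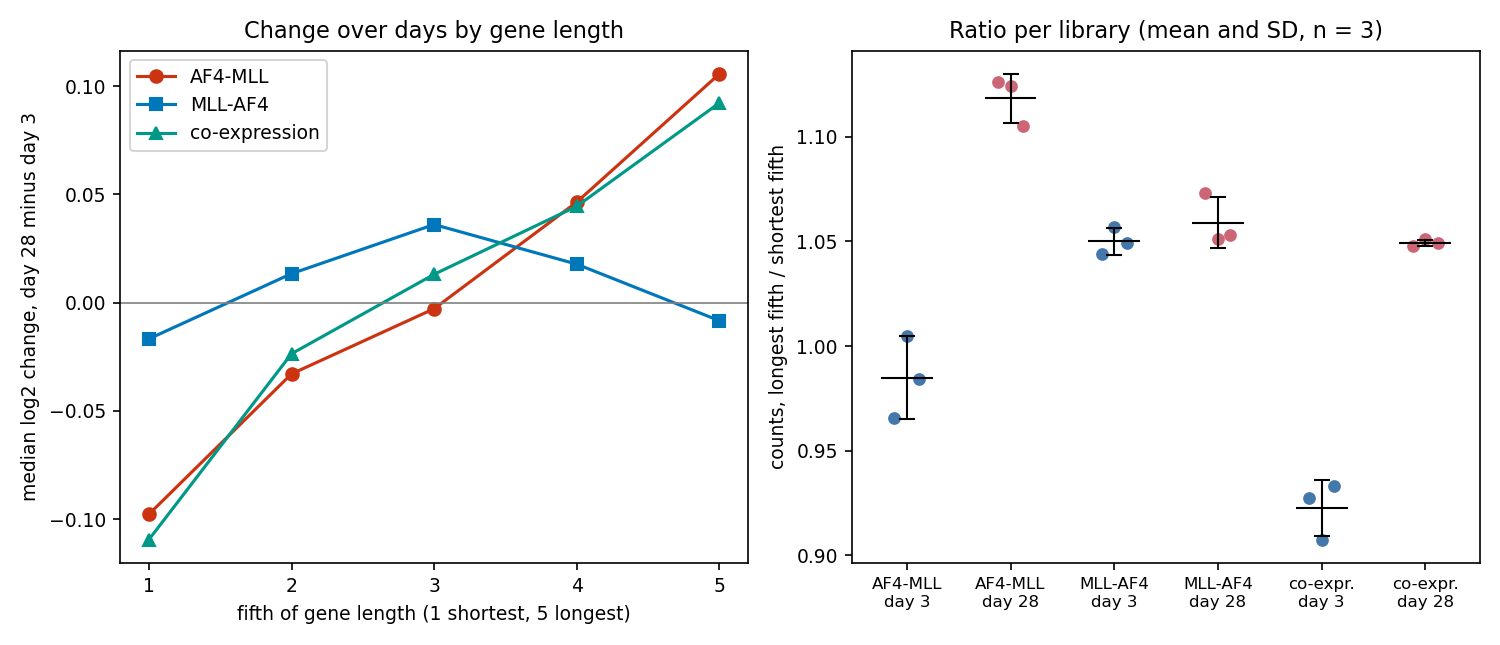
Left, median log2 change from day 3 to day 28 (y axis) in 5 groups of genes from shortest to longest (x axis) for the 3 settings. Right, counts on the longest group over counts on the shortest (y axis) in each library, with mean and SD, where the AF4-MLL libraries lie between 0.966 and 1.01 on day 3 and between 1.11 and 1.13 on day 28.

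With an offset for gene length in the fit, chosen after seeing the data, 5 nuclear genes were called, namely HSPA5, NDRG4 and RGL1 lower and EYS and REXO1L11P higher, of 15464 tested. Without the offset, 17 were called among 15252 genes with a length, a slightly smaller set. With the offset HSPA5 had a log2 change of −0.94 (edgeR adjusted p 1.1e-09). The median of the 12 ER chaperones was −0.16 with the offset and −0.16 without it, and 6 of the 12 are in the shortest group. SDF2L1 lost its call with the offset. The part of gene length in the chaperone values was not tested.

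Pathway lists outside the ER held few changes. Immediate early genes, which include the AP-1 factors that open enhancers on stimulation, had 0 of 21 genes called and a median log2 change of −0.18, with 17 values below 0 and 6 genes lower at an unadjusted p under 0.05. Among all 17601 nuclear genes tested, 815 were lower and 767 higher at an unadjusted p under 0.05 by edgeR. JUN had 167, 185 and 180 CPM on day 3 and 130, 131 and 145 on day 28, with every library of day 28 lower, but did not pass (log2 −0.38, edgeR adjusted p 0.082). EGR1 had 14.0 CPM on day 3 and 7.87 on day 28 on average (log2 −0.90) and FOS 20.04 and 19.4 (log2 −0.18). Of this list 17 genes are in the shortest length group, and the median was −0.11 with the length offset. Ribosomal protein genes gave 0 of 83 called and a median of −0.18, with 68 values below 0 and 9 genes lower and 1 higher at an unadjusted p under 0.05, and 65 of them are in the shortest group. Their median was −0.08 with the offset. Their summed counts were 62.5, 57.2 and 62.0 per 10000 nuclear counts on day 3 and 54.7, 53.3 and 55.1 on day 28, without overlap. Sums of other lists were lower without overlap too, such as the proteasome (16.1 to 16.6 against 15.3 to 15.8). All protein-coding genes together took 7890 to 7930 on day 3 and 7779 to 7868 on day 28. The missing overlap is therefore not particular to ribosomal protein genes.

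G1 cyclins, CDKs and their inhibitors had 0 of 20 genes called, a median of −0.15, 17 values below 0 and 1 gene lower at an unadjusted p under 0.05, and here the median was −0.14 with the length offset. CCND1 (cyclin D1) had 29.0, 24.6 and 23.1 against 21.5, 18.2 and 14.6 CPM (log2 −0.52, edgeR adjusted p 0.404). Of 24 DNA replication genes 0 were called, and single members stood on both sides. MCM2, a subunit of the replicative helicase, had a log2 value of −0.46 and CDT1, which loads it, one of 0.40. Mitosis (22 genes), p53 targets (16), heat shock (20), ATF4 targets (22), hypoxia and glycolysis (24), cholesterol synthesis (21) and proteasome (31) had 0 called each and medians between −0.04 and −0.01. Nuclear genes of the respiratory chain had 0 of 36 (complex I) and 0 of 37 (complexes II to V) called, with medians of −0.05 each.

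Genes tied to MLL and AF4 themselves showed no call. The 20 tested targets of MLL fusions, which include HOXA9, MEIS1, RUNX1 and MEF2C, had a median of 0.11, with 15 values above 0 and 1 gene higher at an unadjusted p under 0.05. Of all 17601 nuclear genes tested, 767 were higher at that threshold. HOXA9 had a log2 value of 0.24, MEIS1 one of −0.02, RUNX1 one of 0.11 and MEF2C one of 0.01. Of these targets 13 are in the longest length group, and the median was −0.00 with the length offset. The 18 genes of the MLL and COMPASS complexes had a median of 0.07. KMT2C, another H3K4 methyltransferase, had 23.02, 27.5 and 27.0 CPM on day 3 and 39.7, 43.6 and 37.7 on day 28 without overlap, and narrowly missed the threshold (log2 0.68, edgeR adjusted p 0.057). The 22 genes of the AFF family, the super elongation complex, P-TEFb and DOT1L had a median of −0.01 and 0 called.

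Most of the 17601 nuclear genes tested, 13978, were protein-coding. Of these 15 were called higher and 20 lower, with a median of 0.01, where 0.125% and 0.153% of all nuclear genes were called. Of 1026 lncRNA genes 0 were called (median −0.06), and of 366 pseudogenes 1 was higher (median −0.03). Genes without a RefSeq match, 2137 in number, had 6 higher and 7 lower ones (median −0.07). Small classes, with 0 called each, had medians further from 0, namely −0.21 for 28 miRNA genes, −0.11 for 5 snoRNA genes, −0.07 for 23 snRNA genes, 0.12 for 21 rRNA genes and 0.24 for 17 genes of other types. The 35 HOX genes, 48 replication-dependent histone genes and 321 zinc finger genes tested had 0 called and medians of 0.03, 0.01 and 0.02. Among the 404 olfactory receptor genes in the table, silent in most tissues, only 9 had enough counts to be tested. Summed over all 404, they took 9.85, 11.7 and 11.6 of 10000 nuclear counts on day 3 and 15.8, 16.2 and 12.5 on day 28. The 53 clustered protocadherin genes took 3.01, 3.03 and 2.67 on day 3 and 3.91, 3.61 and 3.41 on day 28. In both families the sums of the days did not overlap, as in several other lists, where the sums of day 28 were lower. The 3 protocadherin genes with enough counts to be tested had values below 0 (median log2 −0.10), the direction opposite to that of the sum.

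The share of nuclear counts that each chromosome received changed by small amounts. By limma on log2 shares, 9 of 23 chromosomes were called, 5 higher (4, 6, 9, 13 and 18) and 4 lower (11, 16, 17 and 22). Chromosome 13 took 1.88, 1.91 and 1.85% on day 3 and 2.03, 2.03 and 2.05% on day 28 (log2 0.11, limma adjusted p 1.9e-06). Chromosome 16 took 4.76, 4.67 and 4.78% against 4.45, 4.57 and 4.53% (log2 −0.07, limma adjusted p 0.0011). FAHD1, NDRG4, TNFRSF12A and E4F1, among the lower genes above, lie on chromosome 16, with log2 changes of −0.81 to −0.54. Of its 709 tested genes 5 were called lower and 0 higher, against 0.153% and 0.125% of all nuclear genes tested. Every gene called lower had a log2 change of −0.44 or below. A change larger than the chromosome's therefore followed from the call.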

How the data were processed

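The authors deposited raw counts of ATAC-seq reads, whole numbers for 54425 genes, 1 column per library. The submitters' processing notes name bcl2fastq, Bowtie2, HTSeq and GRCh38. The region counted per gene, the treatment of duplicates and the shift of reads to the cut site are not given in the sources used here, and counts without strand let overlapping genes share reads. The tests used edgeR 4.0.16 (R 4.3.3). One fit held the 6 groups of 18 libraries, scaled by TMM. Genes passed filterByExpr at a minimum count of 10 and a total of 15, which left 17660, and quasi-likelihood F tests were adjusted over these by Benjamini-Hochberg. A gene was called at an adjusted p under 0.05. The study's own selection (unadjusted p under 0.05, absolute log2 change over 1, mean count over 2) was an alternative. CPM values use TMM-scaled library sizes. Chromosome shares were tested with limma 3.58.1, and the mitochondrial share and length ratio with exact two-sided permutation tests. DESeq2 1.42.0 was an alternative. The pipeline was tested on simulated data.

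Members and lists were chosen with earlier results of these data known. A listed gene is not reported here and was left out of its lists. Lists are described by counts and medians, without a test. Named were KMT2A, AFF1, up to 15 called nuclear genes per direction by smallest adjusted p (mean of at least 10 counts, days not overlapping), called list members, the 2 members with the smallest p of other lists, ER stress genes and up to 3 genes per direction in each interaction. HOXA9, MEIS1, RUNX1, MEF2C, EGR1, FOS, FICD and SERP1 were added after their values were seen. Symbols were matched to RefSeq (GRCh38.p14), with 87.9% of nuclear genes tested found, and for promoters 69.2%. Replicates of 1 day differed by more than sampling noise. Depth limits detection: a tested gene had a median of 12 to 31 counts per library.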

Additional observations from a re-analysis of the deposited data

Results flagged for a closer look

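The change over days differed between AF4-MLL and MLL-AF4 cells in 11 named genes, by edgeR's test of the interaction (log2 change in AF4-MLL minus that in MLL-AF4 cells). PKNOX2, a homeobox gene, differed by 1.84 (edgeR adjusted p 0.015), with changes of 0.64 and −1.20 in the 2 settings, and ATG9A by 1.36 (adjusted p 0.0038), with 0.68 and −0.68. PRDM9, which marks recombination sites in meiosis, differed by 0.92 and changed in MLL-AF4 cells (−0.95) while its value in AF4-MLL cells was −0.03. AC026202.3 and AC099548.2 differed by 1.14 and 1.08 in the same way. FAHD1 differed by −1.3 (edgeR adjusted p 0.015), with −0.81 and 0.48, and DNAJC7 by −0.97. The entries FP671120.3, FP671120.4, FP236383.2 and FP236383.3, copies of repeated ribosomal sequence that share reads, differed by −1.10, −1.14, −0.91 and −0.96. Leaving out replicate 1 of AF4-MLL day 3 ended the calls of DNAJC7, PKNOX2 and ATG9A, and leaving out replicate 3 ended those of DNAJC7, PKNOX2 and FAHD1. DNAJC7 also lost its call without replicate 2 of day 3 and without replicate 1 or 2 of day 28.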

How the results depend on the processing

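Called under each alternative that gave them a value were HSPA5 (17), AC093809.1, MIR6723 and AL669831.3 (15 each, without a RefSeq length) and AC008735.1 (13). Calls in all numbered 107 (22 nuclear higher, 27 lower, 3 listed genes, 56 in the interaction with MLL-AF4). Library size only gave 15485 (3 higher, 15429 lower, 902 listed, 11 in the interaction), with the median moved by −1.06. Nuclear genes only gave 28 (11, 17). DESeq2's Wald test gave 63 (4, 6, 1 listed, 8 in the interaction). No filter gave 9 higher and 26 in the interaction. A mean of at least 30 counts gave 14 higher, 5 listed, 85 in the interaction and a length difference (longest minus shortest group) of 0.165 against 0.203. The loess offset and the fit of 6 libraries each gave 5 listed. The length offset, added after seeing the data and fitted without mitochondrial genes, gave 5 (2, 3, 1 listed) and a length difference of −0.0139, and genes with a length but no offset 17 (6, 11), with 15464 and 15252 genes tested. The study's selection gave 202 (80, 65). Leaving out 1 AF4-MLL library gave 73 to 101 calls, 9 to 22 higher, 8 to 22 lower and 1 to 4 listed. The same step gave 20 to 49 in the interaction and 8 to 9 chromosomes. Length differences were then 0.195 to 0.217 and mitochondrial differences 24.1 to 28.8 points. No library of the other settings was left out. Beyond the genes tested and the scaling, the cause was not tested.

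The replicate block gave 91 calls (13 higher, 21 lower). Correlations of same-numbered deviations from the group mean were 0.02, −0.00 and −0.02 in AF4-MLL cells. Replicates of 1 day differed only a little more than sampling noise (chi-square per degree of freedom 1.06 to 1.17). Such correlations therefore cannot tell whether the replicate numbers pair the libraries.

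Signs reversed with library size only for KMT2A (−1.08), HELLPAR (−0.56), KANSL1L (−0.18), TTN (−0.54), KIAA1958 (−0.0138), EIF2AK3 (−0.71), XBP1 (−0.98), DNAJC3 (−0.65), SIL1 (−0.74), PDIA6 (−0.94), TXNDC5 (−1.01), ERO1A (−1.07), OS9 (−0.66), SEL1L (−1.02), SYVN1 (−1.01), SEC61B (−0.89), SEC61A1 (−0.87), CDT1 (−0.65), CXXC1 (−0.58), LARP7 (−0.68), HOXA10 (−0.73), ATG9A (−0.40), AC026202.3 (−0.78) and AC099548.2 (−0.92).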

Other observations

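Some lists outside the comparisons above also held values of single genes and 0 called genes in AF4-MLL cells. Interferon response genes (18 tested) had a median log2 change of −0.15, while STAT2, a factor of that response, had 8.22, 13.0 and 6.94 CPM on day 3 and 11.7, 18.8 and 13.3 on day 28 (log2 0.76, edgeR adjusted p 0.374). Nuclear genes for the upkeep and transcription of mitochondrial DNA (20 tested) had a median of −0.05, and TFB2M, a transcription factor of mitochondria, had 21.4, 15.9 and 11.6 against 12.4, 8.29 and 11.2 CPM (log2 −0.69, edgeR adjusted p 0.375). TALE homeobox genes (14 tested) had a median of −0.01 and kidney development genes (17 tested) one of −0.02. At an unadjusted p under 0.05 the 4 lists held 1, 1, 3 and 2 genes, where 8.99% of all nuclear genes tested had such a p.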
